A study of Mus musculus with 3 samples.

Results

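Glutathione metabolism and its transcriptional control by NRF2 are described here through 10 genes, chosen by name: Nfe2l2, Gclc, Gclm, Slc7a11, Gsr, Gsta4, Gstm1, Txnrd1, Srxn1 and Nqo1. All 10 had a value among the 19938 named genes of the array, each from exactly 1 probe set. They were measured in 3 cultures of FSP1-positive fibroblasts from the mouse forestomach, the squamous part of the rodent stomach, with 1 Affymetrix Mouse Gene 1.0 ST array per culture. The control was wild type, from normal forestomach. The array labelled Tgfbr2 cKO came from fibroblasts of a forestomach squamous cell carcinoma with a conditional knockout of the type II TGF-beta receptor gene. The array labelled Tgfbr2/Smad4 cKO came from normal forestomach, with conditional knockouts of the receptor gene and of Smad4, the SMAD shared by the TGF-beta and BMP pathways. All cultures grew in serum-containing DMEM with antibiotics, and their mice were C57BL6 and BALBc males or females in a mix not resolved by culture. As to the Cre driver, mouse ages and floxed alleles of the control, nothing is stated in the labels.

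Glutathione is a small thiol peptide that buffers peroxides and reactive electrophiles in the cell. Its synthesis begins with glutamate-cysteine ligase, made of a catalytic subunit (Gclc) and a modifier subunit (Gclm), and is fed by cystine imported through the transporter encoded by Slc7a11. The transcription factor NRF2, encoded by Nfe2l2, is held at a low level by KEAP1 and, when released, binds with small MAF proteins to antioxidant response elements of genes for glutathione synthesis, thioredoxin recycling and quinone reduction. NRF2 is regulated largely through the stability of its protein, which an RNA array does not read.

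Values are log2 signals as deposited, and a difference is one array's log2 signal minus another's, so 1 unit is a 2-fold difference. With 1 array per culture there is no replicate, no test and no p-value, and precision is limited by how few arrays there are. The 3 array medians were each 6.63. Of the named genes, 11808 reached the median of all values, 6.63, in at least 1 array, and these form the background for each count below. The lowest value of any of the 10 genes was 7.58, so all of them passed this floor in every array. Exactly equal deposited values were frequent, with 62.6% of the 11808 genes equal in at least 1 pair of arrays and 32.7% equal in all 3. Of the 10 genes, 5 had the same value in a pair of arrays and 5 had 3 different values. The origin of such ties is not stated, and a small difference may be hidden by them. Tied genes stay in the background and lower the shares of genes given below. In Tgfbr2/Smad4 cKO against wild type 3.4% of the 11808 genes differed 2-fold, but 8.64% of the 4419 genes with 3 different values.

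The arrays also differed in ways other than the labelled knockouts. Levels are given below in the fixed order wild type, Tgfbr2 cKO, Tgfbr2/Smad4 cKO. Tgfbr2 read 10.25, 10.25 and 10.29, and Smad4 read 11.06, 11.06 and 11.04. Each value sums up the whole transcript, so it does not check removal of an exon. Xist, expressed in female cells, read 5.33, 5.35 and 9.44, and the Y-linked Eif2s3y read 10.12, 10.00 and 5.01. Genotype therefore cannot be told apart from carcinoma origin in the Tgfbr2 cKO array, or from sex in the Tgfbr2/Smad4 cKO array. Between these arrays, carcinoma origin and sex both differ. Mouse strain was not resolved by culture, so it cannot be told apart from genotype in any comparison. S100a4, which encodes FSP1, had levels of 13.18, 13.16 and 12.71, and 14 of 14 fibroblast markers passed the floor. Of these markers 3 were 2-fold higher in the Tgfbr2/Smad4 cKO array than in wild type, Pdgfra, Lum and Fap at 1.40, 1.21 and 1.09, and 1 was 2-fold lower, Thy1 at -2.36. Among markers of other cell types, 8 of 13 epithelial, 6 of 11 leukocyte and 6 of 9 endothelial genes lay below the floor in every array, among them Epcam, Cdh1, Ptprc and Pecam1. The other 5 epithelial, 5 leukocyte and 3 endothelial genes passed it. Krt19 among them had 8.82, 9.25 and 6.93, Lyz2 had 8.70, 9.52 and 7.75, and Mcpt8 had 7.72, 8.72 and 6.36. The 3 endothelial genes each had equal values in all arrays. The log2 of the summed epithelial signals was 10.51, 10.60 and 9.99 over the arrays, and that of the leukocyte signals was 10.44, 10.95 and 10.02. For the mesothelial markers, 3 of 11 of which were below the floor (Gpm6a, Lrrn4 and Muc16), it was 11.63, 11.22 and 10.61. Of the other 8, 7 were below wild type in the Tgfbr2 cKO array and 1 above, with a median of -0.43. Upk3b was 2-fold lower there, at -1.07. Over all genes 19% were lower in that comparison, 0.00847% of them 2-fold. In the Tgfbr2/Smad4 cKO array all 8 were below wild type, 3 of them 2-fold, with a median of -0.57 and Upk1b at -3.48. Smooth muscle and pericyte markers, of which 9 of 10 passed the floor, had summed signals of 15.86, 15.94 and 14.89. In the Tgfbr2/Smad4 cKO array 7 of these 9 were below wild type, 5 of them 2-fold, with a median of -1.62 and Kcnmb1 and Myh11 at -4.21 and -3.37. Proliferation genes had summed signals of 14.55, 14.39 and 13.33, with 27 of 27 members below wild type in the Tgfbr2/Smad4 cKO array, 19 of them 2-fold, and a median of -1.49. In that comparison 31.1% of the 11808 genes were higher and 32.2% lower, with 1.22% 2-fold higher and 2.18% 2-fold lower. These shares are the background for every marker and list count of that comparison, here and below. The part of the marker shifts in the differences below was not tested.

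Promoter sequences are shown for 4 of the genes, picked after their array differences were seen. Gclm and Nqo1 were lower in the Tgfbr2/Smad4 cKO array, Txnrd1 was lower by less, and Srxn1 had its wild-type value there. Whether the sequences bear on these differences was not tested. Each run is the coding strand from 250 bases before to 50 bases after a RefSeq transcript start in GRCm38.p6. Capitals mark each match to TGACNNNGC, the 1 form of the antioxidant response element core that was searched, and other forms are not marked. Of the 10 genes, 7 matched an entry of the promoter table, with 10 windows in all, because Gstm1 and Txnrd1 have more than 1 start. The windows of Gclm (chr3:122245307-122245606, plus strand), Txnrd1 (chr10:82858956-82859255, plus strand), Srxn1 (chr2:152105274-152105573, plus strand) and Nqo1 (chr8:107403156-107403455, minus strand) read as follows.
Gclm: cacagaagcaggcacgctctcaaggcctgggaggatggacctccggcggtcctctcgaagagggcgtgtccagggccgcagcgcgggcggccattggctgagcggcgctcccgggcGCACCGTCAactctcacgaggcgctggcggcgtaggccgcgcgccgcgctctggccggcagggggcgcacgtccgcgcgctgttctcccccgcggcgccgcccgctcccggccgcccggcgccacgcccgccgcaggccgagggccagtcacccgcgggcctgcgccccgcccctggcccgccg
Txnrd1: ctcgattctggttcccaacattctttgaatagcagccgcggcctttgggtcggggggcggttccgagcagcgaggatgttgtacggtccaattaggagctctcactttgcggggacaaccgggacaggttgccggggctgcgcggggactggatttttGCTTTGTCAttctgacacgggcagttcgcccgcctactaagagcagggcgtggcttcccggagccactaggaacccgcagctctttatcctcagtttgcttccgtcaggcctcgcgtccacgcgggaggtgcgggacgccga
Srxn1: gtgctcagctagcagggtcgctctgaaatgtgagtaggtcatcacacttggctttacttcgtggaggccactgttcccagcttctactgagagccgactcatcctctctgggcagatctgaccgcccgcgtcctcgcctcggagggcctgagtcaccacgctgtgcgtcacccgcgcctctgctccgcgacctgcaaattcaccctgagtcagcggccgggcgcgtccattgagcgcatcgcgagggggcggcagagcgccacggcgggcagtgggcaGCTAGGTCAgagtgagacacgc
Nqo1: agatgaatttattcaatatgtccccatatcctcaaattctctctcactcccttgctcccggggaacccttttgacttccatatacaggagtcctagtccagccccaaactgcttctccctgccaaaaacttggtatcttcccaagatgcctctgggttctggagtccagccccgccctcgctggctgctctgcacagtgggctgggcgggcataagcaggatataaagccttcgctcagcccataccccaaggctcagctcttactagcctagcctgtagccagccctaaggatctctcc

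The motif searched was TGACNNNGC on either strand, which reads GCNNNGTCA on the opposite one, and no other motif was searched. It was present in 4 of the 7 genes with a window, Nfe2l2, Gclm, Txnrd1 and Srxn1, and in 14.0% of all 27025 genes of the table. Per window it was present in 4 of 10, against 12.4% of all 32851 windows of 300 bases. In Gclm the match GCACCGTCA began 134 bases before the start. In Txnrd1 the match GCTTTGTCA began 92 bases before the start of the window printed, and the 2 other Txnrd1 windows held none. The Srxn1 match GCTAGGTCA began at base 29 of the transcript, and the Nfe2l2 match TGACTCCGC began 240 bases before its start. The windows of Nqo1, Slc7a11 and Gstm1 held no such letters. A match or its absence describes these letters in these windows only.

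The transcription factor gene itself differed little. Nfe2l2 (probe set 10483809) had log2 levels of 10.49 in wild type, 10.60 in the Tgfbr2 cKO array and 10.38 in the Tgfbr2/Smad4 cKO array. Its whole range over the 3 arrays was 0.21, with the highest value in the Tgfbr2 cKO array and the lowest in the Tgfbr2/Smad4 cKO array. The difference of 0.11 between Tgfbr2 cKO and wild type was reached or passed by 6.37% of the 11808 genes, and the difference of -0.10 between Tgfbr2/Smad4 cKO and wild type by 22.7%. Genes that control or partner NRF2 were mixed. Of 14 such genes beyond Nfe2l2 that passed the floor, 6 were higher and 3 lower in the Tgfbr2/Smad4 cKO array than in wild type, 5 were exactly equal, and 0 differed 2-fold. Keap1, the adaptor that targets NRF2 for degradation, had levels of 9.31, 9.28 and 9.58, and Bach1, a repressor that competes at the same elements, had 8.98, 8.98 and 9.22. The small MAF partners were not alike. Mafg and Mafk each had 1 value in all arrays, 9.50 and 9.56, while Maff had 9.98, 10.00 and 9.01, a difference of -0.97 between Tgfbr2/Smad4 cKO and wild type that 2.29% of genes reached or passed. Trim21, which encodes an E3 ubiquitin ligase, was next, with a difference of 0.54.

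Both subunits of glutamate-cysteine ligase were lower in the Tgfbr2/Smad4 cKO array than in the other arrays. Gclc (probe set 10587266) had levels of 9.78, 9.78 and 8.64. Wild type and Tgfbr2 cKO lay 0.01 apart and the third value stood alone, 1.14 below wild type, a signal at 0.454 of the wild-type signal. Among the 11808 genes, 202 lay at least as far below wild type in that array, or 1.71%. Gclm (probe set 10495763) had levels of 10.61, 10.62 and 9.96. Again the first pair nearly coincided, and the Tgfbr2/Smad4 cKO signal was 1.57-fold lower than wild type, a difference of -0.65 that 4.33% of genes reached or passed. The catalytic subunit thus differed more than the modifier subunit on the log2 scale, with 1 array behind each value.

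**Figure D1:**
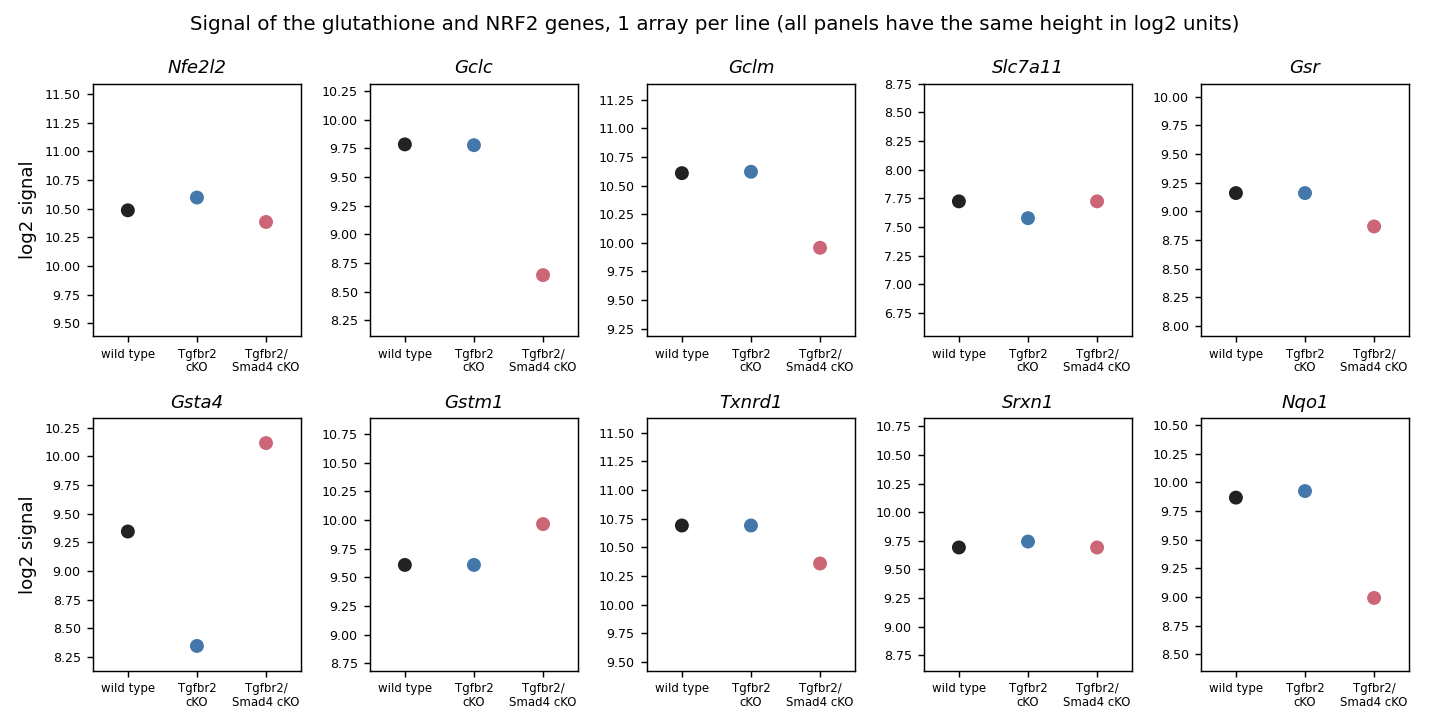
Log2 signal (vertical axis, in log2 units) of each of the 10 genes by array (horizontal axis, wild type first, then the knockouts), 1 point per array and no error bars since there was 1 array per culture. Every panel spans the same height but starts at another level. Gclc, Gclm and Nqo1 have a single low point in the Tgfbr2/Smad4 cKO array, at 8.64, 9.96 and 8.99, while Gsta4 is low in the Tgfbr2 cKO array, at 8.35, and high in the Tgfbr2/Smad4 cKO array, at 10.12.

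The rest of the synthesis and recycling pathway did not share the size of that difference. Gsr (probe set 10571274), the reductase that returns oxidised glutathione to its thiol form, had levels of 9.16, 9.16 and 8.87. The first pair was exactly equal, and the difference of -0.29 to the third was reached or passed by 11.9% of genes. Gss, the enzyme of the next synthesis step, had 9.61, 9.66 and 9.66. Of the 7 genes of this list beyond Gclc, Gclm and Gsr, 5 were higher in the Tgfbr2/Smad4 cKO array than in wild type, 1 was lower and 1 was equal, with a median of 0.26 against a median of 0 over all genes, and 0 differed 2-fold. The highest of them was Oplah, which recycles oxoproline to glutamate, at 0.50, and the lowest was Ggct, whose product releases that oxoproline, at -0.34.

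The import of cystine had no difference of comparable size. Slc7a11 (probe set 10498024) had levels of 7.72, 7.58 and 7.72, with exactly the same value in the wild-type and Tgfbr2/Smad4 cKO arrays and a value 0.15 lower in the Tgfbr2 cKO array. Its partner chain Slc3a2 had levels of 12.03, 12.04 and 12.03. Among 6 genes of cystine and amino acid supply beyond Slc7a11, Slc3a2 included, 2 were higher, 1 lower and 3 equal in the Tgfbr2/Smad4 cKO array against wild type. The largest difference was that of the glutamine transporter gene Slc1a5, with levels of 9.65, 9.57 and 10.51. Cth, whose product makes cysteine from cystathionine, had 9.67, 9.83 and 9.44.

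The glutathione transferases, which join glutathione to electrophiles, were represented by Gsta4 and Gstm1, both higher in the Tgfbr2/Smad4 cKO array than in wild type. Gsta4 (probe set 10587315), which encodes a transferase for the lipid peroxidation product hydroxynonenal, had levels of 9.35 in wild type, 8.35 in Tgfbr2 cKO and 10.12 in Tgfbr2/Smad4 cKO. It was the widest-ranging of the 10 genes, with 1.77 log2 units between its lowest and highest array, and the wild-type value lay between the others. In the Tgfbr2 cKO array its signal was 1.997-fold lower than wild type, just short of 2-fold. Of the 11808 genes 2 were at least that far below wild type, Gsta4 itself and the mesothelial marker Upk3b. The next lowest gene was Upk1b, also a mesothelial marker, at -0.83. With quantile and with cyclic loess normalization the Gsta4 difference to wild type was -1.001 and -1.0004, just past 2-fold. In the Tgfbr2/Smad4 cKO array its signal was 1.71-fold higher than wild type and 3.41-fold higher than in the Tgfbr2 cKO array, a difference that 0.415% of genes reached or passed. The leukocyte marker sum ran the other way over the arrays, high in Tgfbr2 cKO and low in Tgfbr2/Smad4 cKO, and the mesothelial sum was below wild type in both, and their part in the Gsta4 values was not tested.

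Gstm1 (probe set 10501229), a mu-class transferase, had levels of 9.61, 9.61 and 9.97. The first pair was exactly equal, and the Tgfbr2/Smad4 cKO signal was 1.28-fold higher, a difference of 0.36 that 6.56% of genes reached or passed. The mu-class genes are close copies of each other, so how far a probe set reads 1 of them alone is uncertain. Gstm2 and Gstm4 were also higher in the Tgfbr2/Smad4 cKO array than in wild type, by 0.66 and 0.50, Gstm5 by 0.12 and Gstm3 by 0.09, while Gstm7 was equal. The transferases as a family showed no common direction. Of 18 that passed the floor beyond Gsta4 and Gstm1, 8 were higher, 6 lower and 4 equal in the Tgfbr2/Smad4 cKO array against wild type, with a median of 0, the same as over all genes. The lowest were Gsto1, an omega-class transferase gene, with levels of 11.93, 11.90 and 10.82, and the kappa-class Gstk1, with 7.66, 8.09 and 6.68. Gsto1 was 2-fold lower in the Tgfbr2/Smad4 cKO array against either other array, and Gstk1 only against Tgfbr2 cKO, at -1.41. Glutathione peroxidase and glutaredoxin genes had 0 of 9 members 2-fold different, and the largest differences to wild type in the Tgfbr2/Smad4 cKO array were 0.48 for Glrx3 and 0.45 for Gpx3, the plasma peroxidase gene.

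In the thioredoxin arm, which keeps protein thiols reduced, Txnrd1 and Srxn1 differed by less than 1.5-fold in every comparison. Txnrd1 (probe set 10365260), the cytosolic thioredoxin reductase gene, had levels of 10.69, 10.69 and 10.36, exactly equal in wild type and Tgfbr2 cKO and 1.26-fold lower in Tgfbr2/Smad4 cKO. That difference of -0.33 was reached or passed by 10.6% of genes. Srxn1 (probe set 10477061), whose product reactivates overoxidised peroxiredoxins, had 9.69, 9.74 and 9.69. It was exactly equal in wild type and Tgfbr2/Smad4 cKO and had the narrowest range of the 10 genes, 0.05. The Txnrd1 and Srxn1 windows printed above each hold a match, and its bearing on these values was not tested. Of 12 further genes of this system, 5 were higher and 7 lower in the Tgfbr2/Smad4 cKO array than in wild type, with a median of -0.05 and 0 at 2-fold. Thioredoxin itself (Txn1) and peroxiredoxin 1 (Prdx1) were on the lower side, at -0.41 and -0.46. The sestrin genes, whose products act in stress and nutrient signaling, were on the higher side, with Sesn3 at 0.86, Sesn1 at 0.53 and Sesn2 at 0.35.

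Nqo1 (probe set 10581538), which encodes the quinone reductase most used as a readout of NRF2, had levels of 9.87, 9.92 and 8.99. The wild-type and Tgfbr2 cKO arrays were 0.06 apart, and the Tgfbr2/Smad4 cKO array had a difference of -0.88 to wild type, a 1.83-fold lower signal. Among the 11808 genes, 330 lay at least as far below, or 2.79%. Against the Tgfbr2 cKO array its signal was 1.91-fold lower. Other genes often listed as NRF2 targets were spread to both sides. Of 25 beyond Nqo1, 9 were higher, 11 lower and 5 equal in the Tgfbr2/Smad4 cKO array against wild type, with a median of 0 and 0 at 2-fold. Heme oxygenase 1 (Hmox1), also a target of BACH1, had levels of 12.62, 12.75 and 12.03. The aldehyde oxidase gene Aox1 had 7.56, 7.26 and 8.49, and Pir, which encodes pirin, had 8.26, 8.09 and 9.20. These last were the only genes of this list that differed 2-fold in any comparison, both in Tgfbr2/Smad4 cKO against Tgfbr2 cKO, at 1.23 and 1.11. Pir lies on the X chromosome, and the part of the sex difference between these arrays in its values was not tested.

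**Figure D2:**
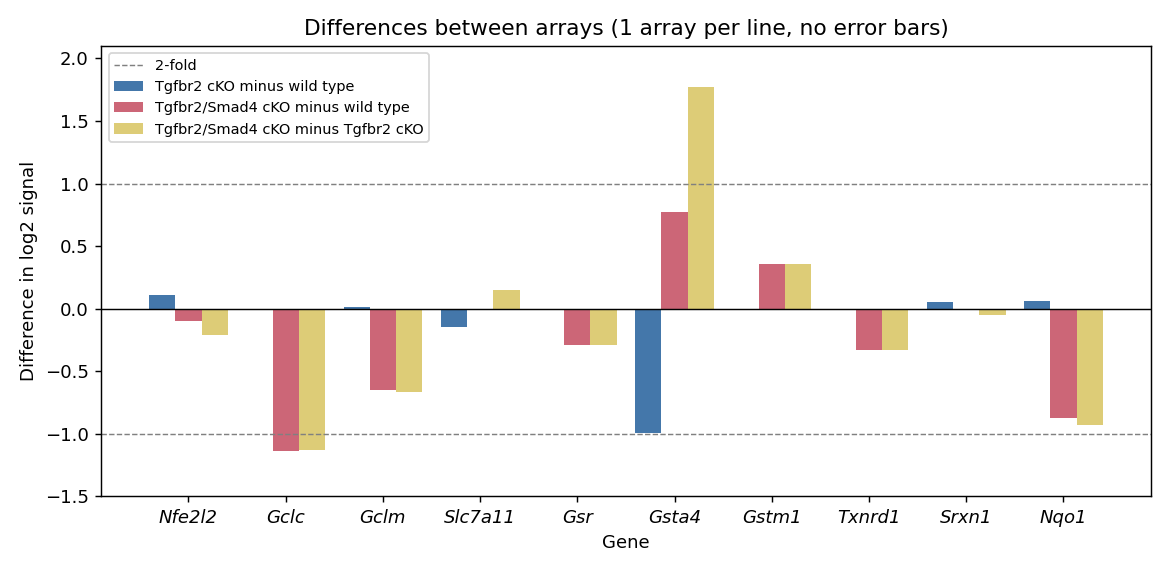
Difference in log2 signal (vertical axis) for each of the 10 genes (horizontal axis) in the 3 comparisons, as bars from 0, with dashed lines at 2-fold; each bar is 1 array minus another and has no error bar. Gclc passes the lower line in both comparisons of the Tgfbr2/Smad4 cKO array, Gsta4 passes the upper line against Tgfbr2 cKO at 1.77, and Gsta4 ends just short of the lower line in Tgfbr2 cKO against wild type.

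In Tgfbr2 cKO against wild type most differences among these genes were small. Of the 10, 4 were higher, 3 lower and 3 exactly equal, with a median of 0, while 25.8% of all genes were higher and 19% lower. None of the 10 was 2-fold different, a count of 0, against 0.0254% of all genes 2-fold higher and 0.00847% 2-fold lower. That background was 3 genes higher and 1 lower, a split of 75% higher that became 60% with cyclic loess normalization. Apart from Gsta4, the differences lay between -0.15 and 0.11. The tally of directions moved with the normalization, since the 3 equal genes became higher with median centring and lower with quantile or cyclic loess. At 1.5-fold, 1 of 10 was lower, Gsta4, and 0 were higher, against 0.161% and 0.212% of all genes.

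In Tgfbr2/Smad4 cKO against wild type, of the 10, 6 were lower, 2 higher and 2 exactly equal, with a median of -0.20 against 0 over all genes, of which 32.2% were lower and 31.1% higher. At 2-fold 1 of 10 was lower, Gclc, and 0 were higher, against 2.18% and 1.22% of all genes. A size rule of 1.5-fold took in 3 on the lower side, Gclc, Gclm and Nqo1, and 1 on the higher side, Gsta4, against 5.09% and 3.35% of all genes. The 10 genes were chosen with these results known, so these shares describe them and do not set them apart.

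**Figure D3:**
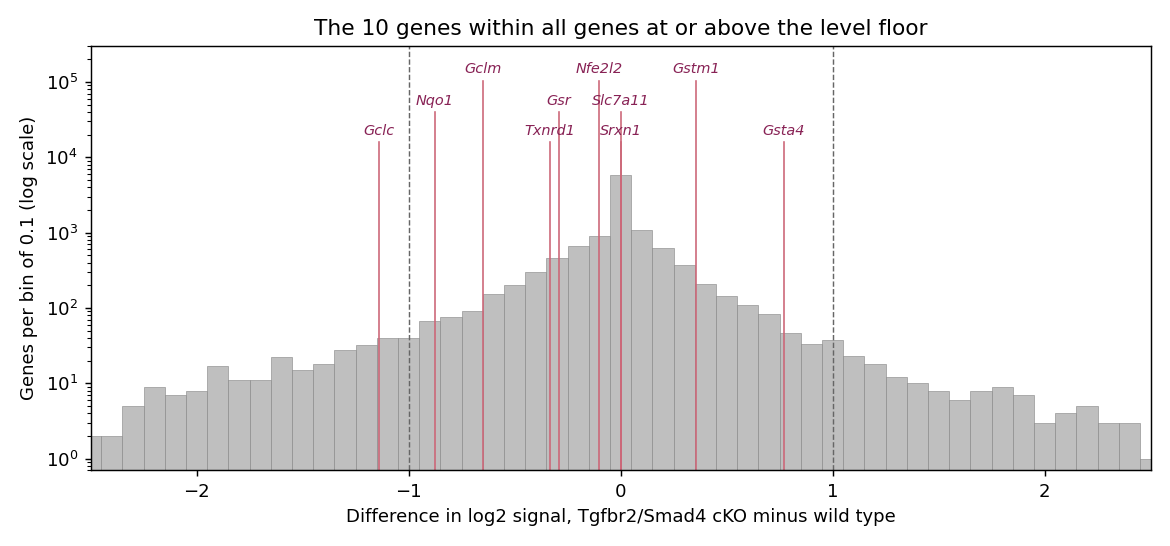
Number of genes (vertical axis, log scale) in bins of 0.1 of the difference in log2 signal between the Tgfbr2/Smad4 cKO and wild-type arrays (horizontal axis), for the 11808 genes at or above the floor, with a line for each of the 10 genes and dashed lines at 2-fold. Gclc lies past the lower dashed line, Nqo1 and Gclm between it and the centre, and Slc7a11 and Srxn1 in the central bin; the axis is limited to 2.5 on either side.

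Against the Tgfbr2 cKO array, the Tgfbr2/Smad4 cKO array was lower in 7 of the 10 genes and higher in 3, with a median of -0.25, while 33.7% of all genes were lower and 30.2% higher. At 2-fold 1 was lower, Gclc at -1.13, and 1 higher, Gsta4 at 1.77, against 2.25% and 1.32% of all genes. At 1.5-fold 3 were lower and 1 higher, against 5.61% and 3.4% of all genes. This comparison shares the Tgfbr2/Smad4 cKO array with the previous one, so their values are not separate evidence. Its arrays also differ in both carcinoma origin and sex. For Gsr, Gstm1 and Txnrd1 the differences to wild type and to Tgfbr2 cKO were the same, since those arrays had equal values.

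Genes listed for the supply of NADPH, which both reductases and NQO1 consume, were mixed. Of 13 that passed the floor, 7 were lower, 3 higher and 3 equal in the Tgfbr2/Smad4 cKO array against wild type, with a median of -0.02 and 0 at 2-fold. Pgd of the pentose phosphate pathway was lower, with levels of 11.69, 11.65 and 10.89. Tkt, a gene of the same pathway whose product makes no NADPH itself, had a difference of -0.46. Malic enzyme 3 (Me3) had 7.0, 7.33 and 7.99, and the folate enzyme gene Aldh1l1 had 7.90, 7.90 and 6.95. Genes for superoxide and peroxide enzymes were higher in 8 of 13, lower in 3 and equal in 2, with 0 at 2-fold. The extracellular superoxide dismutase gene Sod3 had levels of 8.73, 8.70 and 9.60, and the xanthine dehydrogenase gene Xdh had 9.87, 9.73 and 10.52, while catalase (Cat) had 10.46, 10.47 and 10.47. ATF4 targets, which share Slc7a11 as a target with NRF2, had 9 of 18 higher, 3 lower and 6 equal, with a median of 0.01. The cationic amino acid transporter gene Slc7a1 was the one past 2-fold among them, with levels of 10.08, 10.17 and 9.05. Over all genes in Tgfbr2/Smad4 cKO against wild type, 31.1% were higher and 32.2% lower, with 1.22% and 2.18% at 2-fold. With so few genes per list, 0 or 1 at 2-fold does not set a list apart.

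Taking the 10 pathway lists as 1 set without the 10 genes, 160 of 173 symbols had a value and 133 passed the floor beyond the 10 genes. In Tgfbr2 cKO against wild type 49 were higher, 37 lower and 47 equal, with 0 past 2-fold. Over all genes 25.8% were higher and 19% lower in that comparison, with 0.0254% 2-fold higher and 0.00847% 2-fold lower. In Tgfbr2/Smad4 cKO against wild type 58 were higher, 44 lower and 31 equal, with 0 past 2-fold on the higher side and 2 on the lower side, Gsto1 and Slc7a1, which is 1.5% against 2.18% of all genes. In Tgfbr2/Smad4 cKO against Tgfbr2 cKO 57 were higher, 49 lower and 27 equal, against 30.2% of all genes higher and 33.7% lower. At 2-fold 2 were higher, or 1.5%, and 3 lower, or 2.26%, against 1.32% and 2.25% of all genes. The median was 0 in each comparison, as over all genes, and the shares past 2-fold lay near the background.

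**Figure D4:**
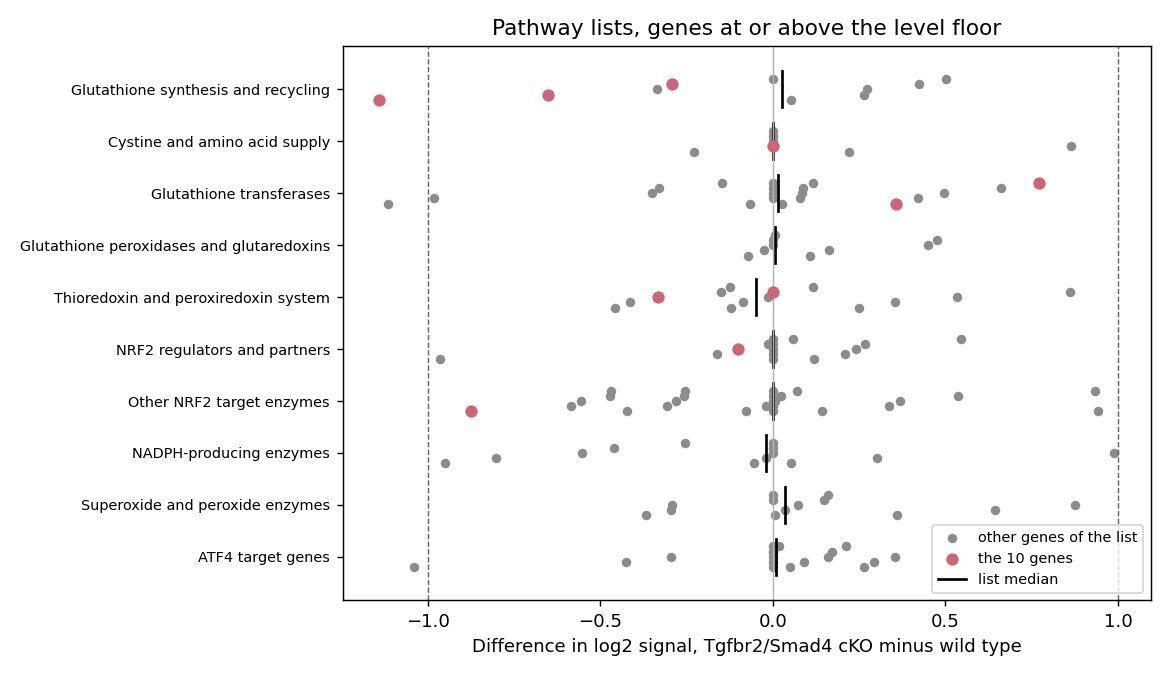
Difference in log2 signal between the Tgfbr2/Smad4 cKO and wild-type arrays (horizontal axis) for each gene at or above the floor in the 10 pathway lists (vertical axis, staggered only to part the points), with the 10 genes as larger red points, list medians over all plotted genes as black bars, and dashed lines at 2-fold. All list medians lie near 0 while single genes lie on either side, and the points past the lower dashed line are Gclc, Gsto1 and Slc7a1.

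The genes whose pattern over the 3 arrays lay nearest to Gclc and Gsta4 were found by the Euclidean distance over both differences to wild type. Nearest to Gclc were Polh, Fkbp5, Bmpr1b, Pla2g7 and Id2, all within 0.017 of it. Polh had levels of 9.31, 9.30 and 8.17, Fkbp5 had 8.83, 8.83 and 7.70, and Bmpr1b had 9.45, 9.46 and 8.31. Pla2g7 had 7.49, 7.49 and 6.33, and Id2 had 10.92, 10.91 and 9.79. Gsta4 had no such close neighbours. The nearest were C1qtnf3 at a distance of 0.28, Neto1, Tbx15, Bckdhb and, at 0.44, the retinaldehyde dehydrogenase gene Aldh1a1, with levels of 11.19, 10.49 and 11.64. Over 3 arrays many genes can share a pattern, and nearness here is a description.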

How the data were processed

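Affymetrix Mouse Gene 1.0 ST arrays read biotin-labelled cDNA of 3 fibroblast cultures, 1 array per group, grouped by sample title. The deposited values, 1 per probe set for 35556 probe sets, were used unchanged as log2 signals. That scale was inferred from their range of 2.82 to 15.6. The making of these values (software, background correction, normalization, build) is not given in the sources used here. Array medians differed by at most 0.00413.

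The platform annotation gave 1 gene symbol to 21789 probe sets, several to 1621 and none to 12146. Symbols were updated by gene identifier for 21698 through a RefSeq table of GRCm38.p6, used for names only, and probe sets of a gene were averaged, giving 19938 genes. The floor was the median of all values, 6.63, reached in any array. Sizes were counted at 2-fold and 1.5-fold. The genes named were the 10 members, and from each pathway list those 2-fold different in any comparison or, failing that, the 2 that differed most. To these were added the 5 genes nearest in pattern to each member 2-fold different, and Tgfbr2, Smad4, Xist, Eif2s3y and S100a4. Other list genes given by role or as examples, and their values, were picked after their values were seen. The members and lists were chosen with earlier results of these data known. Promoter windows came from RefSeq.

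Alternatives covered normalization, floor, probe set choice, an added signal of 32 and size rules. The counting code was run on simulated arrays with known fold changes. These held no tied values, unlike the deposited ones, so the run checks the code and not the counts reported here. Python 3.11.15, numpy 2.4.6, pandas 2.3.3 and matplotlib 3.10.9 were used, with R 4.3.3 and limma 3.58.1 for the normalizations.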

Additional observations from a re-analysis of the deposited data

How the results depend on the processing

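No paired analysis was possible because each group had 1 array. Under quantile and cyclic loess normalization, no difference of the 10 genes that was above or below 0 as deposited changed sign. Signs also held with median centring, which moved values by at most 0.00413. The other settings could not change a sign. Each of the 10 genes had exactly 1 probe set, so both probe set choices returned the same values. An added signal of 32 keeps the order of the arrays. The differences of exactly 0 were 5: Gsr, Gstm1 and Txnrd1 in Tgfbr2 cKO, and Slc7a11 and Srxn1 in Tgfbr2/Smad4 cKO, against wild type. These moved off 0 by at most 0.0388 under median centring, quantile or cyclic loess normalization. Of the 10 genes, 7 were then higher and 3 lower with median centring, and 4 higher and 6 lower with quantile or cyclic loess, in Tgfbr2 cKO against wild type. In Tgfbr2/Smad4 cKO against wild type 2 were higher and 8 lower, 4 and 6, and 3 and 7 with median centring, quantile and cyclic loess normalization. The largest move, 0.094, came from the added signal, and Gclc against wild type stayed between -1.14 and -1.08 in Tgfbr2/Smad4 cKO. The one side of 2-fold that changed was that of Gsta4 in Tgfbr2 cKO against wild type, so that 1 of the 10 genes in place of 0 was 2-fold different with quantile and with cyclic loess normalization.

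Counts moved mainly with the size rule. At 1.5-fold, 44, 997 and 1064 genes differed in Tgfbr2 cKO against wild type, Tgfbr2/Smad4 cKO against wild type and Tgfbr2/Smad4 cKO against Tgfbr2 cKO, in place of 4, 401 and 422, and of the 10 genes 1, 4 and 4 in place of 0, 1 and 2. At 3-fold, 0, 151 and 161 genes differed, and 0, 0 and 1 of the 10. The floor at the 75th percentile, which Slc7a11 did not reach, left 2, 251 and 269 genes, with fewer genes tested, and the added signal left 2 in the first comparison. Restricted to the 4419 genes with 3 different values, a choice made after seeing the data, 4, 382 and 403 genes differed 2-fold, or 0.0905%, 8.64% and 9.12%. The same restriction left 5 of the 10 genes, of which 0, 1 and 2 were 2-fold different.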
